A study of Mus musculus with 4 samples.

Results

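The cells described here are quiescent stem-like cells, 494 of 13892 kept cells from marrows of Nup358 knockout mice and their controls. They were chosen by measured transcripts. A member had at least 3 of 6 transcripts of haematopoietic stem cells detected (Procr, Mecom, Hlf, Pdzk1ip1, Mmrn1 and Meg3) and no transcript of the proliferation genes Mki67 and Top2a. It also had fewer than 2 unique molecular identifiers (UMIs) of each of the lineage genes Elane, Mpo and Pf4, none of Klf1 and fewer than 3 of Dntt. Levels of these 13 genes in the members therefore describe the choice and are not findings.

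The study asked how loss of the nuclear pore protein Nup358, the product of Ranbp2, changes blood formation. Live Lin-Sca1+cKit+ (LSK) cells, a sorted fraction that holds stem cells and multipotent progenitors, were profiled by 3′ droplet single-cell RNA sequencing, in which a UMI stands for 1 captured transcript. The control group was Nup358 fl/fl mice without Cre, called wild-type in the labels, and the knockout group was Nup358 fl/fl mice with R26-CreERT2, a tamoxifen-regulated Cre recombinase expressed in all tissues. All mice carried the floxed allele and were 9 to 12 weeks old. Tamoxifen is described for both genotypes, given on 3 consecutive days where a schedule is stated. The interval to the sort of these cells is not given in the sources used here. Each genotype had 2 libraries, and each library pooled 3 marrows, so a library is the replicate and n = 2 per genotype throughout. Controls carried no CreERT2, so effects of Cre activity and of Nup358 loss cannot be told apart.

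Haematopoietic stem cells renew themselves and give rise to all blood lineages, and most of them rest outside the cell cycle in the adult marrow. The transcription factors Mecom and Hlf and the surface receptor Procr are widely used to recognise them, and the imprinted long noncoding RNA Meg3 is high in the most dormant of them. On leaving rest, cells raise cyclin D, load the MCM helicase on DNA and make the enzymes of nucleotide supply. Immediate early genes such as Fos, Jun and Egr1 are switched on within minutes of a stimulus, without new protein synthesis.

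Promoter windows of 4 genes that moved in the knockout members are shown here, 2 from the immediate early genes that fell (Fos and Btg2) and 2 from the replication genes that rose (Mcm5 and Cdt1). They are RefSeq sequences of build GRCm38.p6 and run from 250 bases before to 50 after the RefSeq start, written 5′ to 3′ on the gene's strand. Capitals mark TGACGT, the core of the cAMP response element, on either strand in Fos and Btg2, and the E2F letters TTTCGCGC, TTTGGCGC or TTTCCCGC on either strand in Mcm5 and Cdt1.
Fos, chr12:85473640-85473939, plus strand: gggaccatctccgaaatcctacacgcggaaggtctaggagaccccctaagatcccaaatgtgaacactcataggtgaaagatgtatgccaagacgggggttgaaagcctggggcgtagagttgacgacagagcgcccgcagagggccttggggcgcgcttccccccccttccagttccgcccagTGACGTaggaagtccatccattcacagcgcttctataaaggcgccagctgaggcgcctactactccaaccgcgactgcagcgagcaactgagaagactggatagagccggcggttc
Btg2, chr1:134079106-134079405, minus strand: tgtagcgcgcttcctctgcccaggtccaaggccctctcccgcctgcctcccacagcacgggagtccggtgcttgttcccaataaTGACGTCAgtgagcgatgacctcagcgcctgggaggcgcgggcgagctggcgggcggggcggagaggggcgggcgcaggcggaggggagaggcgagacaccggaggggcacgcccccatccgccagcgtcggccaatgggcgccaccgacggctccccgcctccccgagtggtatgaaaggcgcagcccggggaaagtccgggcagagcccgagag
Mcm5, chr8:75109259-75109558, plus strand: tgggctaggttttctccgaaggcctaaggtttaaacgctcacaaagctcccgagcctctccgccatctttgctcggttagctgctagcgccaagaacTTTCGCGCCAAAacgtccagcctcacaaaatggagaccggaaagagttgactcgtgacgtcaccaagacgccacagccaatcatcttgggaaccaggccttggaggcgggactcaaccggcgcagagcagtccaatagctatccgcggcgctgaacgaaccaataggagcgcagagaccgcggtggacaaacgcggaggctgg
Cdt1, chr8:122567765-122568064, plus strand: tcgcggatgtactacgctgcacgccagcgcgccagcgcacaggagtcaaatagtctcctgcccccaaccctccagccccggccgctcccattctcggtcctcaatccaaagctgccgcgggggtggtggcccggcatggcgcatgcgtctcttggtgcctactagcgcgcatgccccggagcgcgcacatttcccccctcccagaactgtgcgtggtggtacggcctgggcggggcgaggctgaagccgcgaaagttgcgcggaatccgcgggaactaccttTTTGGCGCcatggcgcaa
The match in Fos lay 66 to 61 bases before the start, and the 2 matches in Btg2 were the overlapping strands of the palindrome TGACGTCA. In Mcm5 the 2 E2F matches overlapped on opposite strands. Windows were found for 21 of the 25 tested genes of the replication list, and E2F letters were in 47.6% of them, against 4.76% of the 5718 tested genes with a window and 2.12% of all 27025 genes with one. Windows were found for 19 of the 21 tested immediate early genes, and TGACGT was in 21.1% of them, against 15.1% of the tested genes, 8.37% of all genes and 23.8% of the replication windows, among them that of Mcm5, where it is printed in lower case. These letters were thus no more frequent in the immediate early list than in the replication list. A match is a description of letters in the window and not of a factor on the DNA.

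The members were spread unevenly over the libraries, where the controls held 201 (replicate 1) and 157 (replicate 2) and the knockouts 51 and 85 in the same order. The deposited matrices held 25242 barcodes in all. A barcode was kept when it had at least 1000 UMIs, at most 10% mitochondrial UMIs and no library in which the same barcode sequence had at least 3 times its UMIs. Such copied barcodes made up 14.8% and 81.8% of the control barcodes and 65.3% and 18.8% of the knockout barcodes, in the order of the replicates. After this step 6 barcode sequences were still kept in more than 1 library, and none of them was a member, although 206 members had a shallower copy elsewhere. The members' median depth was 2934 and 9089 UMIs in the controls and 10675 and 7639 in the knockouts, so control replicate 1 stood apart as shallow. Summed over members, the libraries gave 634222 and 1457079 UMIs in the controls and 523139 and 643714 in the knockouts.

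Hlf, a transcription factor of stem cells, was the marker most often detected, in 460 of the 494 members (93.1%). Mecom was detected in 84.6%, Pdzk1ip1 in 73.7%, Procr in 45.7%, Mmrn1 in 27.1% and Meg3 in 20.9%. In the 3198 kept cells with 20 or more UMIs of Elane and Mpo, which belong to the neutrophil branch and were deeper (median 13231 against 6586.5 UMIs), these shares were 35.6%, 21.9%, 6.88%, 5.82%, 1.501% and 1.34%. Hlf and Mecom were thus the least exclusive of the markers. The commonest combination was Mecom, Hlf and Pdzk1ip1 alone, in 133 members (26.9%), followed by the same genes with Procr in 60 members (12.1%). At least 4 markers were detected in 24.9% and 52.9% of the control members and in 39.2% and 29.4% of the knockout members.

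Marker levels in the members differed between the genotypes for some of the 6 genes, given here without a test because they chose the cells. Levels are in CPM, a gene's UMIs for each 1000000 summed UMIs of the members, on which 1 UMI was worth 1.58 and 0.686 CPM in the controls and 1.91 and 1.55 CPM in the knockouts. Meg3 (chr12:109541001-109571726, GRCm38) stood at 137 and 113 CPM in the controls and at 5.73 and 10.9 CPM in the knockouts. It was detected in 23.9% and 29.9% of control members and in 3.92% and 7.06% of knockout members. This was the widest gap among the 6 markers, and the knockout values rest on 3 and 7 UMIs. Mmrn1, a platelet and endothelial adhesive protein, stood at 99.3 and 41.9 CPM against 26.8 and 26.4 CPM. Pdzk1ip1, a small membrane protein, stood at 301 and 174 CPM against 109 and 141 CPM. Procr, the endothelial protein C receptor, had overlapping levels of 124.6 and 66.6 CPM against 80.3 and 118.1 CPM. The members of both genotypes thus met the rule through the same leading genes, Hlf and Mecom, with Meg3 nearly missing from the knockouts.

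The name was checked against 11 genes that the rule did not use, by comparing members with marker-poor cells. These were 1888 kept cells that met every negative condition with fewer than 3 markers, and 1174 of them had 1 or 2 markers. Most of the stem cell genes were higher in the members than in the cells with 1 or 2 markers. Vwf, an adhesive protein of platelets and of platelet-biased stem cells, was 18.9 and 10.3 CPM in control members and 15.3 and 23.3 CPM in knockout members. In the cells with 1 or 2 markers it was 10.3 and 3.41 CPM in the controls and 3.02 and 9.79 CPM in the knockouts. Hoxb5, a homeobox factor of long-term stem cells, was 18.9, 12.4, 9.56 and 12.4 CPM in the members of the 4 libraries, always above the 4.05, 1.14, 3.02 and 3.26 CPM of the cells with 1 or 2 markers. Fgd5, Esam, Tek, Slamf1 and Ctnnal1 were also higher in the members of all 4 libraries. Gprc5c, a receptor of dormant stem cells, had no UMI in either control library and 1.91 and 4.66 CPM in the knockouts, so it could not be used. Ly6a, which encodes Sca1 and was part of the sort, was 505, 428, 478 and 384 CPM in the members of the 4 libraries. It was 339.6, 366, 473 and 381 CPM in the cells with 1 or 2 markers, so these classes were close in the knockouts. In all marker-poor cells it was 351, 361, 906 and 798 CPM, so there the members were higher in the controls and lower in the knockouts.

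**Figure D1:**
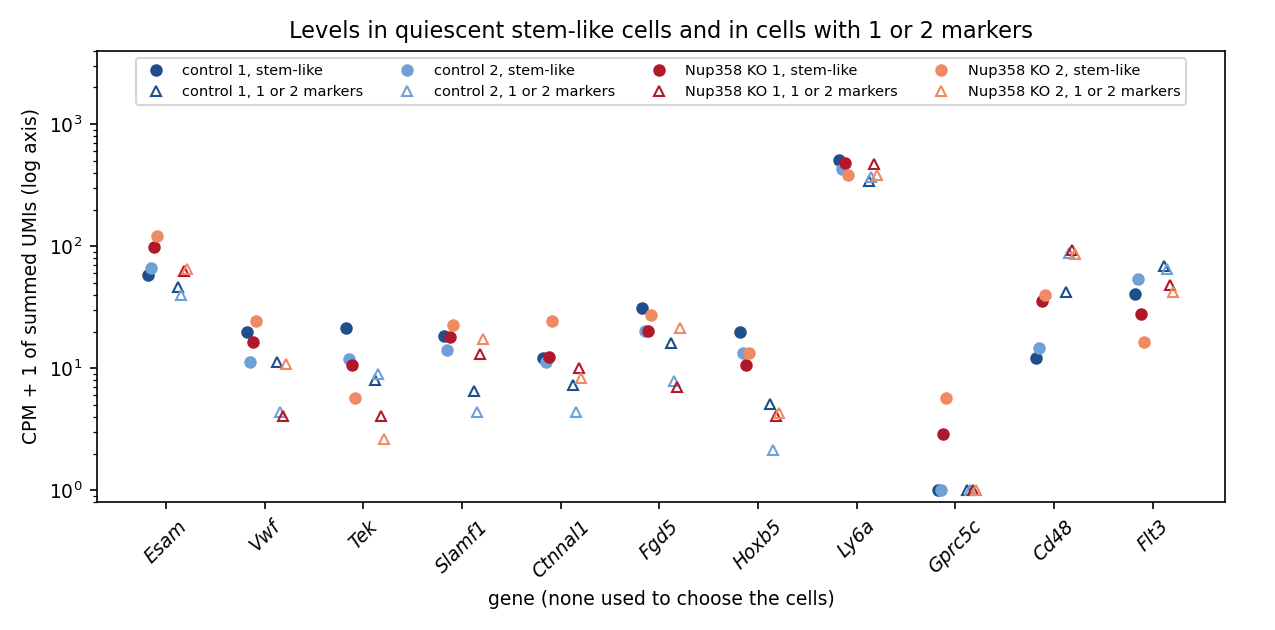
Levels of the 11 genes of the name check, in CPM + 1 of summed UMIs on a log axis, in stem-like cells (circles) and in cells with 1 or 2 markers (triangles) of each library. Each point is 1 library. Vwf, Hoxb5, Fgd5 and Esam lie higher in the stem-like cells of each library, Cd48 and Flt3 lie lower, and Gprc5c has no UMI in either control.

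Cd48, which marks multipotent progenitors and is low on stem cells, was lower in the members. Its level was 11.04 and 13.7 CPM in control members and 34.4 and 38.8 CPM in knockout members, against 41.3, 86.4, 92.2 and 85.7 CPM in the cells with 1 or 2 markers of the same libraries. Flt3, a receptor of lymphoid-primed progenitors, was 39.4, 52.8, 26.8 and 15.5 CPM in the members and 67.8, 63.7, 46.9 and 40.8 CPM in the cells with 1 or 2 markers. The direction was the same in all 4 libraries for both genes. Against the cells with 1 or 2 markers, 10 of the 11 genes lay in the direction of the name in each library, with Gprc5c near 0. Against all marker-poor cells, Ly6a lay in the opposite direction in both knockout libraries. Within the comparison with the cells with 1 or 2 markers, these genes did not go against the stem-like part of the label. They do not bear on rest. Genes of replication, described further on, were higher in knockout members, so that for these cells quiescent means only that no Mki67 or Top2a UMI was found. Slamf1, the receptor CD150, was among the less distinct of the higher genes, with a mean log2 difference from all marker-poor cells of 0.63, or 0.13 after each cell was thinned to 3000 UMIs.

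Outside the rule, the 15 genes with the largest mean log2 difference from marker-poor cells (CPM + 5) were Tgm2, Cpne8, Wfdc2, Hacd4, Trim47, Mllt3, Tcf15, Ndn, Cdkn1c, Socs2, Gm4951, Prkcdbp, Fgd5, Gng11 and Epb41l4b. Several of them are known in resting stem cells. Mllt3, a chromatin reader that helps maintain stem cells, was 142 and 157 CPM in control members and 115 and 160.0 CPM in knockout members, with a mean log2 difference of 1.29 ± 0.37 (SD, n = 4 libraries). Tcf15, a transcription factor of quiescent stem cells, differed by 1.28 ± 0.49 and Cdkn1c, the cell cycle inhibitor p57, by 1.26 ± 0.55. Ndn, an imprinted growth suppressor, differed by 1.27 ± 0.20 and Socs2, a feedback inhibitor of cytokine signalling, by 1.20 ± 0.45. All 15 were higher in the members of each library, as the rule for naming them required. Against the cells with 1 or 2 markers alone, all 15 were still higher in each library, and Mllt3 differed by 1.16.

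The genes with the largest negative differences were those of mature cells within the marker-poor class. Jchain, Mzb1 and Cd79a of the B cell and plasma cell lineage, S100a8, S100a9, Retnlg, Lcn2, Ngp and Camp of neutrophils and the haemoglobin genes Hba-a1 and Hba-a2 were among the 15. Jchain was 0, 1.37, 0 and 1.55 CPM in the members. Cells with none of the 6 markers held between 81.2% and 100% of the UMIs that marker-poor cells had of each of the 15 genes, so the class with 1 or 2 markers is used below for comparison, a choice made after these values were seen. In that class, after Cd48, the largest gap was in BC035044, with 12.6, 11.7, 9.56 and 9.32 CPM in the members against 46.4, 53.4, 34.8 and 26.9 CPM.

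The step at the threshold of the rule was gradual. Of cells that met the negative conditions, 714 had none of the 6 markers, 648 had 1, 526 had 2, 316 had 3, 136 had 4, 39 had 5 and 3 had 6. Each cell was then thinned to 3000 UMIs, and markers and negative conditions were read again on the thinned counts. Cells under 3000 UMIs dropped out, and cells whose excluded transcripts were lost by thinning came in. The negative conditions were then met by 920 and 486 control cells and 420 and 703 knockout cells, against 1415, 279, 264 and 424 before. Mllt3 averaged 90.03 CPM over libraries in thinned cells with 2 markers and 168 CPM in those with 3. Hacd4, an enzyme of very long chain fatty acid synthesis, averaged 119.8 and 179 CPM in the same cells. Cd48 averaged 54.6 CPM with 2 markers and 25.2 CPM with 3, and Cdk6, a kinase that drives G1 progression, 432 and 293 CPM. Other stem cell genes had no such order. Slamf1 averaged 17.8 and 6.12 CPM, Ndn 30.1 and 21.5 CPM, Cdkn1c 29.5 and 30.3 CPM and Esam 73.6 and 74.8 CPM with 2 and 3 markers, on 4 to 83 UMIs each. Cells with 3 markers after thinning numbered 57 and 48 in the controls and 17 and 23 in the knockouts, and those with 4 or more only 10, 19, 4 and 8, so the right end of these curves is thinly filled.

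**Figure D2:**
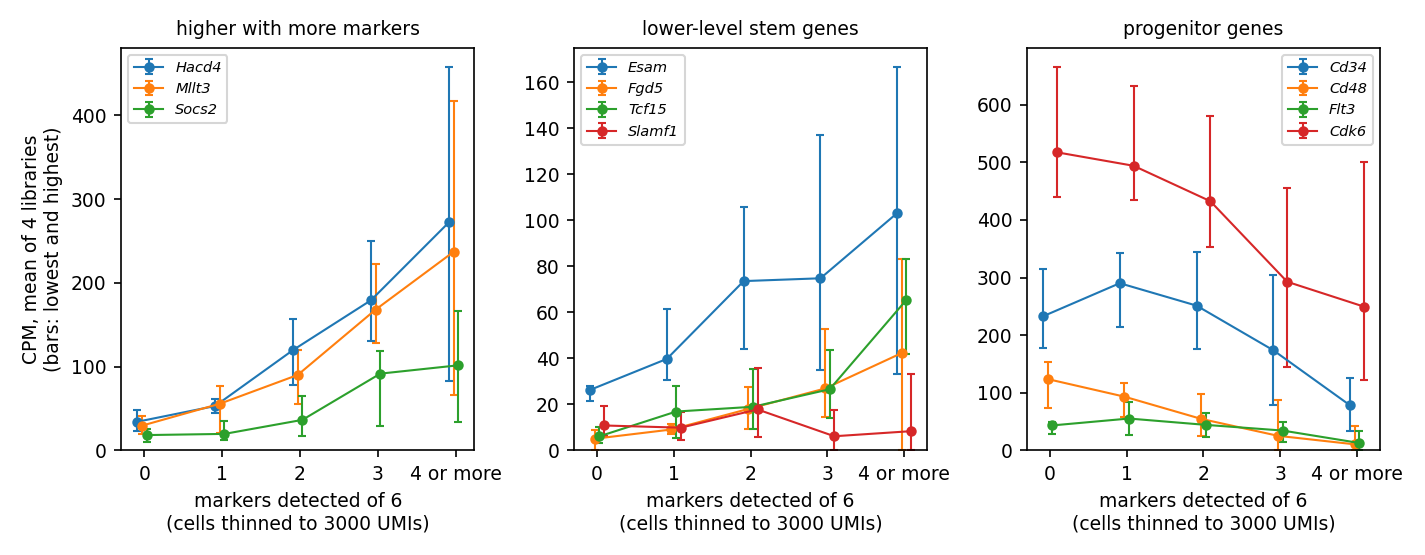
Mean level over 4 libraries (CPM, vertical axis) by the number of markers detected (horizontal axis) in cells that met the negative conditions. Markers and conditions were both read after thinning each cell to 3000 UMIs, so the cells are not those of the rule at full depth. Bars run from the lowest to the highest library, and cells with 4 or more markers number between 4 and 19 a library. Mllt3 and Hacd4 are higher and Cd48 and Cdk6 lower in cells with 3 markers than in cells with 2.

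Transcripts of other cell types were summed over lists in the members, and the stromal and endothelial lists had similar totals in the 4 libraries. Of 20 lymphoid genes outside the rule, 8 had no UMI in any library, among them Ebf1, Pax5, Rag1 and Cd3e, and the summed level was 162, 103, 109 and 143 CPM. Nkg7 was the most abundant of them, at a mean of 71.9 CPM. Of 12 stromal genes, 6 had no UMI, Cxcl12 included, and the sums were 41.0, 41.9, 38.2 and 41.9 CPM, led by Bgn at 17.8 CPM. Of 12 endothelial genes only Stab2 had no UMI, the sums were 353, 318, 315 and 336 CPM, and Egfl7 led at 206 CPM, while the endothelial cadherin Cdh5 was at 0, 0.686, 0 and 3.11 CPM.

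Erythroid, megakaryocyte and granulocyte transcripts were more abundant in each library. Erythroid genes summed to 635, 887, 962 and 1052 CPM, led by Car2 at 448 CPM, with 6 of 16 genes at 0, Hba-a1 and Hba-a2 among them. Megakaryocyte genes summed to 768, 710.3, 596 and 684 CPM, with only Gp6 of 18 genes at 0. The granule and monocyte genes summed to 1030, 542, 501 and 1083 CPM, led by Prtn3 at 358 CPM, with Csf1r and Fcnb of 18 genes at 0, and were highest in control replicate 1 and knockout replicate 2. Dendritic and macrophage genes summed to 224, 265, 491 and 325 CPM, led by Bst2 at 278 CPM, with Cd209a and Xcr1 of 12 genes at 0. The basophil and mast cell genes summed to 0, 7.55, 7.65 and 312 CPM, led by Cpa3 at 34.8 CPM, with Prss34 of 9 genes at 0. In knockout replicate 2, 1 member held 196 UMIs of this last list and 1 member held 20 or more UMIs of S100a8 and S100a9. Both were kept, and the genotype test was repeated without them.

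Under the rule, the share of members among kept cells did not separate the genotypes. It was 2.58% (201 of 7797, exact 95% interval 2.24 to 2.95%) and 13.2% (157 of 1193, 11.3 to 15.2%) in the controls. In the knockouts it was 3.25% (51 of 1571, 2.43 to 4.25%) and 2.55% (85 of 3331, 2.04 to 3.15%). Control replicate 2 alone was high, and the other 3 libraries had nearly the same share. With copied barcodes kept, its share was 4.42% (157 of 3556) and the difference between the genotypes -1.27 points, so its height depended on that step. The mean was 7.87% ± 7.48 (SD, n = 2) in the controls and 2.90% ± 0.49 (SD, n = 2) in the knockouts, so that the knockout mean lay -4.97 points from the control mean (two-sided p = 0.667 by exact permutation of the libraries, where 2 against 2 cannot go below 0.33). Without control replicate 2 the difference was 0.32 points. Intervals cover counting error only.

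Cells with 3 or more markers were members less often in the knockouts before thinning. These shares are built from the genes of the rule and are given as a description, with no test. Such cells numbered 517 and 339 in the controls and 421 and 687 in the knockouts, and 38.9% and 46.3% of them were members in the controls, against 12.1% and 12.4% in the knockouts. Mki67 or Top2a, both made by dividing cells, was detected in 53.6% and 39.2% of control cells with 3 or more markers and in 84.8% and 86.3% of knockout cells. The difference was 39.2 percentage points and the groups did not overlap. In kept cells with fewer than 3 markers the shares were 67.0% and 60.1% against 76.1% and 82.5%. Before thinning, the cells with 3 or more markers were positive less often than the rest in both controls and more often in both knockouts, a contrast that was not tested.

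Detection of a transcript rises with depth, and knockout cells were deeper, so each cell was also thinned to 3000 UMIs. Of the members, 94 of 201 in control replicate 1, all 157 in control replicate 2, all 51 in knockout replicate 1 and 84 of 85 in knockout replicate 2 reached that depth. Mki67 or Top2a was then detected in 30.5% and 13.6% of the control cells with 3 or more markers and in 40.0% and 54.4% of the knockout cells, a difference of 25.2 points. In cells with fewer than 3 markers it was detected in 65.4%, 35.6%, 60.2% and 69.2% of the 4 libraries, so that after thinning the cells with 3 or more markers were positive less often than the rest in each library. The rule was read again on the thinned counts. Cells that met it made up 56.8% and 82.7% of control cells with 3 or more markers and 60.0% and 45.6% of knockout cells, and some of them failed it at full depth. The groups still did not overlap in the share with Mki67 or Top2a, but they overlapped in the share of members, and only 35 and 68 knockout cells kept 3 or more markers at this depth.

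**Figure D3:**
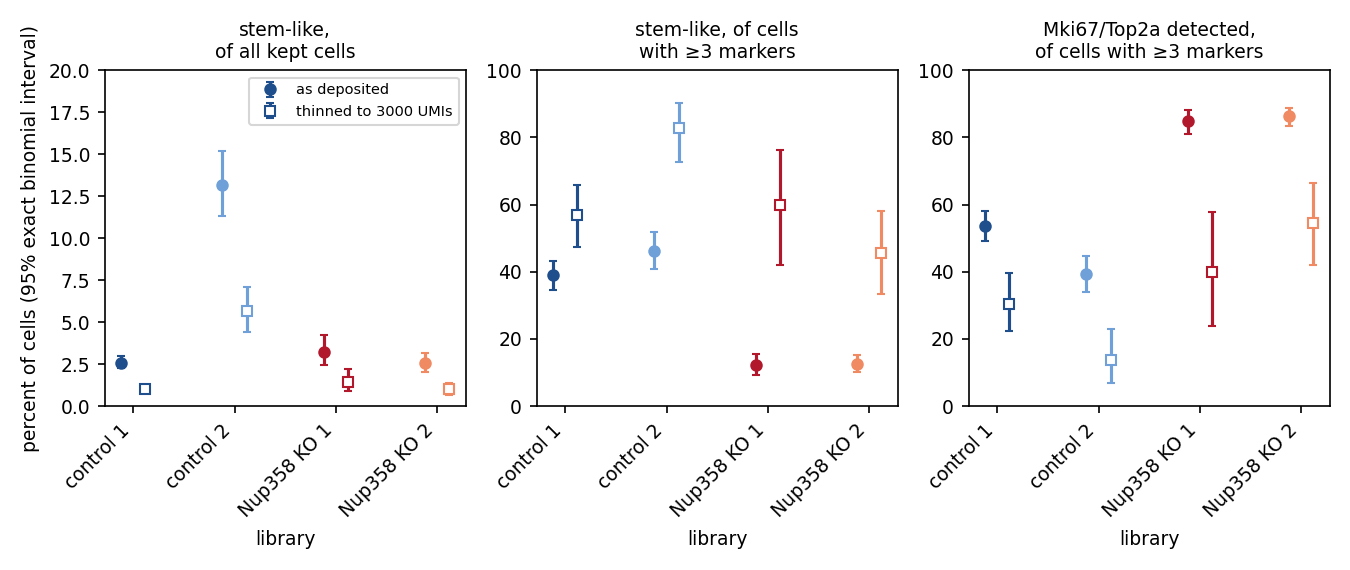
Share of cells (percent, vertical axis) in each library with the exact 95% binomial interval, as deposited (filled circles) and after thinning each cell to 3000 UMIs (open squares). The rule was read again on the thinned counts. Control replicate 2 is high in the share of members among kept cells, and Mki67 or Top2a is detected in 84.8% and 86.3% of knockout cells with 3 or more markers before thinning and in 40.0% and 54.4% after.

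Within the members, transcript levels were then compared between the genotypes, by summing UMIs per library and testing all genes together with edgeR's quasi-likelihood test and Benjamini-Hochberg adjustment at 0.05. The targeted gene was checked before the others. Ranbp2 (chr10:58446920-58494356, GRCm38) was 140 and 101 CPM in control members and 159 and 143 CPM in knockout members, a log2 fold change of 0.26 ± 0.23 (SE, adjusted p = 0.639 by edgeR). The deletion removes exon 2, and reads from the 3′ end of the transcript do not cover it, so this level checks nothing about the deletion. Of 7316 genes tested, 67 were higher in the knockout (0.916%) and 146 were lower (2.00%). The marker genes Meg3, Mmrn1 and Pdzk1ip1 are among the 146 and only describe the choice of cells. Without knockout replicate 1 the counts were 8 and 12, and without knockout replicate 2 they were 18 and 43. The 213 genes kept their direction in these fits, and of the 210 outside the rule 12 passed whichever library was left out. Egr1, Jun, Nr4a1, Btg2, Zfp36, Rgs1, Ccl3, Wfdc17, Skil and Klf9 were lower and Ccnd1 and Lgals1 higher. Of the 213 genes, 212 had values that did not overlap between the genotypes, against 45.6% of all genes tested. Such values leave little room for a direction to turn when 1 library is left out, so the kept directions add no support.

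Immediate early genes fell together in the knockout members. Of 25 genes on the list, 21 were tested, 17 fell and none rose, with a median log2 fold change of -1.66 against -0.02 over all genes tested. Fos, a subunit of the AP-1 transcription factor whose promoter is printed above, was the most abundant, at 3303 and 2315 CPM in control members and 694 and 690 CPM in knockout members. Its log2 fold change was -2.09 ± 0.26 (SE, adjusted p = 8.9e-06 by edgeR). Egr1, a zinc finger factor that restrains stem cell division, was 834 and 832 CPM in the controls and 122 and 91.7 CPM in the knockouts, a log2 fold change of -3.05 ± 0.26. Both knockout libraries lay far below both controls for each gene. Without knockout replicate 1, 6 of 22 tested genes passed, with a median of -1.70, and without knockout replicate 2, 12 of 22 with a median of -1.64.

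Jun, the partner of Fos in AP-1, was 2152 and 1005 CPM in control members and 325 and 222 CPM in knockout members, a log2 fold change of -2.59 ± 0.30. Nr4a1, an orphan nuclear receptor tied to stem cell rest, was 147 and 199.7 CPM against 32.5 and 29.5 CPM. Zfp36, which destabilises AU-rich messenger RNAs, was 296 and 369 CPM against 101 and 77.7 CPM. Of these 3 genes the controls differed between themselves most for Jun, and still did not reach the knockout values. Jund, Junb, Fosb, Nr4a2, Ier2, Ier3, Ier5, Dusp1, Dusp2, Klf6, Rhob and Btg2 also fell. The 4 tested genes that did not pass all had negative values too, and Klf2, a quiescence factor of lymphocytes, was 386 and 382 CPM against 184 and 306 CPM (adjusted p = 0.0995 by edgeR).

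The fall was seen per cell as well. The 25 immediate early genes made up a median of 1.55% and 1.10% of a control member's UMIs, and 0.299% and 0.352% of a knockout member's. The 10th percentile of control members was 0.697% and 0.409%, and the 90th percentile of knockout members was 0.880% and 0.789%. The distributions thus overlapped between single cells while the medians did not. Members with none of these transcripts were rare, at 0.995% of cells in control replicate 1 and 0 elsewhere.

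**Figure D4:**
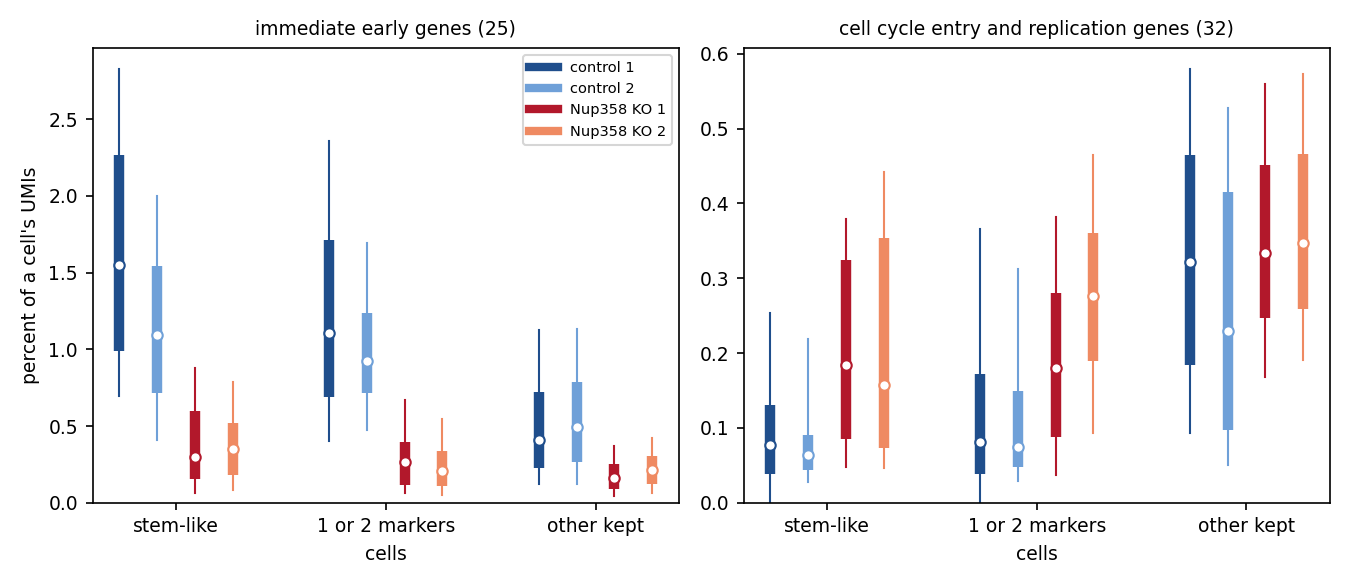
Percent of a cell's UMIs from 25 immediate early genes (left) and 32 replication genes (right) in stem-like cells, cells with 1 or 2 markers and other kept cells of each library. Circles are medians over cells, thick bars run from the lower to the upper quartile and thin lines from the 10th to the 90th percentile. Control members have medians of 1.55% and 1.10% for immediate early genes and knockout members 0.299% and 0.352%.

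Genes that restrain growth showed a smaller set of falls. Of 22 tested genes on the quiescence and growth restraint list, 6 fell, 16 did not pass, and none rose, with a median log2 fold change of -0.35. The 6 became 1 of 23 without knockout replicate 1, 3 of 23 without knockout replicate 2, 2 of 14 after thinning and 3 of 25 with DESeq2. Btg2, an antiproliferative gene that is also on the immediate early list and among p53 targets, was 213 and 264 CPM in the controls and 57.3 and 35.7 CPM in the knockouts, a log2 fold change of -2.49 ± 0.28. Its relative Btg1 was 170.3 and 246 CPM against 103 and 115 CPM. Ypel3, a gene that promotes growth arrest, was 287 and 281 CPM against 66.9 and 102.5 CPM, and Tsc22d1, Tsc22d3 and Smad7 also fell. The cyclin-dependent kinase inhibitors Cdkn1a, Cdkn1b and Cdkn1c of the list did not pass the test, with Cdkn1a at 56.8 and 61.8 CPM against 38.2 and 51.3 CPM. Cdkn1b stood at 66.2 and 81.0 CPM against 63.1 and 52.8 CPM, and Cdkn1c at 34.7 and 22.6 CPM against 30.6 and 38.8 CPM. Of 11 tested p53 targets only Btg2 passed, and Trp53 itself was 213 and 195 CPM against 241 and 208 CPM.

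Genes of DNA replication rose, although no member had Mki67 or Top2a transcripts. Of 32 genes on the list, 25 were tested, 10 rose and none fell, with a median log2 fold change of 1.05, and 24 of the 25 had positive values. Among the 10 were Mcm2, Mcm5, Gins2, Cdt1, Rrm1, Dut, Uhrf1, Tipin and Hells. Mcm5, a subunit of the replicative helicase, was 52.0 and 35.0 CPM in control members and 97.5 and 124.3 CPM in knockout members, a log2 fold change of 1.33 ± 0.27 (SE, adjusted p = 0.0043 by edgeR). Mcm2, another subunit, was 39.4 and 30.2 CPM against 107 and 96.3 CPM, and Cdt1, which loads the helicase, was 18.9 and 13.7 CPM against 44.0 and 48.2 CPM. Dut, an enzyme that removes dUTP, was the most abundant of the list at 161 and 159 CPM against 363 and 353 CPM. For each of these genes both knockout libraries were above both controls.

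Pcna, the sliding clamp, was 50.5 and 35.7 CPM in the controls and 63.1 and 49.7 CPM in the knockouts, and did not pass. Only 2 of 25 mitosis genes were abundant enough to test, and neither passed. The replication genes made up a median of 0.0767% and 0.0633% of a control member's UMIs and 0.184% and 0.158% of a knockout member's, against 0.322%, 0.229%, 0.334% and 0.347% in the other kept cells of the 4 libraries. The 90th percentile over members was 0.254% and 0.218% in the controls and 0.380% and 0.442% in the knockouts. In the knockouts this percentile lay above the median of the other kept cells of each library. Fewer genes of the list passed after thinning, without either knockout library and without control replicate 2. More passed without control replicate 1, where the median was 1.04. The thinned fit also held fewer members and fewer tested genes, and the cause of these moves was not tested. After thinning to 3000 UMIs none of 19 tested genes passed by edgeR, with 8 at an unadjusted p under 0.05 and a median of 0.75. Without knockout replicate 1 none of 27 passed by edgeR, with 19 at an unadjusted p under 0.05 and a median of 1.16. Without knockout replicate 2, 3 of 25 passed, and without control replicate 2, 6 of 27. DESeq2 called 2 of the list.

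Ccnd1, cyclin D1 (chr7:144929931-144939925, GRCm38), rose by 2.48 ± 0.35 on the log2 scale, from 14.2 and 14.4 CPM to 63.1 and 108.7 CPM (adjusted p = 4.0e-05 by edgeR). Of the 6 D cyclins and partners it was the only gene to pass. Ccnd2 was 227 and 211 CPM in the controls and 218 and 263 CPM in the knockouts, and Ccnd3 153 and 178 CPM against 117 and 140 CPM. The rise of a D cyclin was thus found for Ccnd1, the least abundant of the 3 in the controls on this scale, which counts transcript ends and needs no correction for length.

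The 12 largest rises were Ccnd1, Bcam, 2810417H13Rik, Creb5, Chaf1a, Nol10, Lgals1, Nupr1, Uhrf1, Chek1, Lmo1 and Ifi27l2a. Bcam, a laminin receptor of the red cell surface, was 6.31 and 2.06 CPM in the controls and 24.8 and 37.3 CPM in the knockouts, a log2 fold change of 3.05 ± 0.55. Its control values rest on 4 and 3 UMIs, those of 2810417H13Rik on 2 and 4, of Creb5 on 3 and 6 and of Chaf1a on 8 and 11. A gene could pass the filter through 1 genotype alone, so the sizes of these rises are uncertain. Lgals1 had 38 and 145 UMIs in the controls. Lgals1, the sugar-binding protein galectin-1, was 59.9 and 99.5 CPM against 266 and 391 CPM, a log2 fold change of 1.88 ± 0.26. Chaf1a, which places histones on new DNA, was 12.6 and 7.55 CPM against 36.3 and 48.2 CPM. Chek1, a checkpoint kinase of the S phase, was 11.04 and 8.24 CPM against 30.6 and 31.1 CPM. Chaf1a, Chek1 and 2810417H13Rik, which encodes a PCNA-binding factor, were not on the replication list but act in the same process.

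Outside the rule, the largest falls were in Izumo4, Wfdc17, Egr1, Greb1, 4833418N02Rik, Ccl3, Gm15658, Nr4a1, Map3k8, Jun and Btg2. Wfdc17, a secreted protein of activated myeloid cells, was 132 and 296 CPM in the controls and 30.6 and 17.1 CPM in the knockouts, a log2 fold change of -3.35 ± 0.38. Ccl3, a chemokine that inhibits stem cell division, was 69.4 and 111 CPM against 17.2 and 10.9 CPM. With Ccl4 and Ccl5, 4 of 8 tested genes of the chemokine list, which holds Wfdc17, fell and none rose, and 2 fell without knockout replicate 1. Map3k8, a kinase upstream of ERK, was 23.7 and 48.7 CPM against 7.65 and 6.21 CPM. Greb1 was 28.4 and 26.1 CPM against 5.73 and 1.55 CPM, and Izumo4 20.5 and 20.6 CPM against 3.82 and 0 CPM, so both rest on few UMIs in the knockouts.

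**Figure D5:**
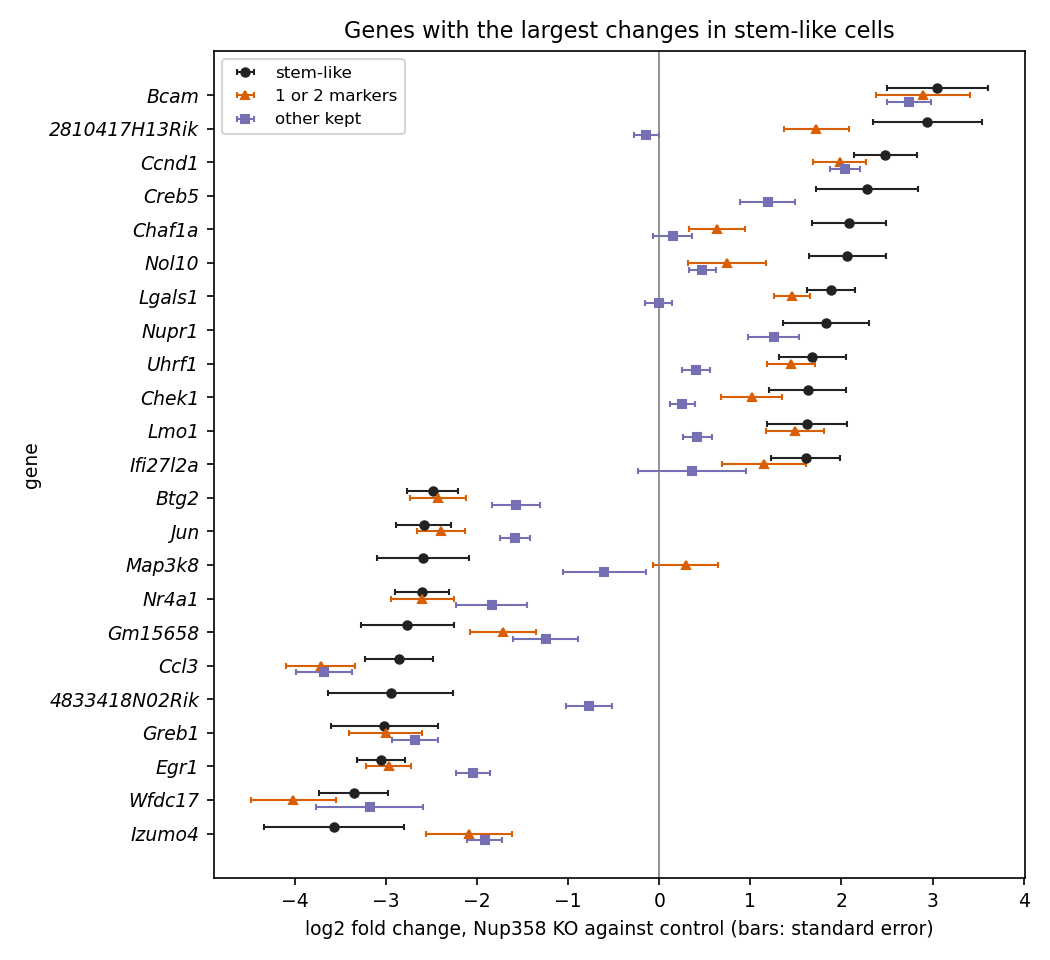
Log2 fold change, Nup358 knockout against control, with its standard error (horizontal axis), of the genes with the largest rises and falls in stem-like cells, Meg3 left out because it chose the cells. Circles are stem-like cells, triangles cells with 1 or 2 markers and squares other kept cells, and a missing triangle means that the gene was not tested there. Bcam and Ccnd1 are above 0 and Egr1 and Wfdc17 below 0 in all 3 classes, while Chaf1a and Lgals1 lie near 0 in other kept cells.

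No stem cell factor passed the test between the genotypes, and most had negative values. None of 25 tested factors passed by edgeR, with 6 at an unadjusted p under 0.05, 5 of them negative, and none by DESeq2, and the median log2 fold change was -0.24, with 8 of the 25 values positive. Their summed level was 4957 and 4370 CPM in the controls and 4326 and 4216 CPM in the knockouts. Meis1, a cofactor of Hox proteins, was 371 and 286 CPM in the controls and 256 and 286 CPM in the knockouts. Gata2, a factor required for stem cell survival, was 137 and 125 CPM against 115 and 132 CPM. Of 30 tested surface and niche genes 3 fell, the cytokine Ltb, the lipid carrier Apoe and the G protein regulator Rgs1, and none rose. Rgs1 was 730.0 and 715 CPM against 157 and 132 CPM. Kit, the receptor of stem cell factor, was 170.3 and 179 CPM against 115 and 172 CPM and did not pass.

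Among 12 multipotent progenitor genes Cd48 rose and Cd52 fell, though neither passed without either knockout replicate and DESeq2 called none of the list. Cd48 changed by 1.40 ± 0.38 on the log2 scale (adjusted p = 0.0427 by edgeR) from the levels given above, which in knockout members still lay below those of the cells with 1 or 2 markers. Flt3 fell short of the threshold at -1.30 ± 0.37 (adjusted p = 0.0528 by edgeR). Cdk6 was 372 and 294 CPM against 325 and 255 CPM, and Cd34 238 and 231 CPM against 185 and 140 CPM, and neither passed.

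Of 23 tested interferon response genes Bst2 and Ifi27l2a rose and none fell, with a median log2 fold change of 0.32, and DESeq2 called none. Bst2, which tethers viruses to the cell surface, was 167 and 207 CPM against 449 and 289 CPM. Ifi27l2a was 25.2 and 43.9 CPM against 195 and 54.4 CPM, so most of the gap came from knockout replicate 1. Of 21 tested genes for Nup358 partners, class I histone deacetylases and nuclear transport, Xpo1, the main export receptor, rose from 55.2 and 45.3 CPM to 120.4 and 113 CPM. Hdac3 was 30.0 and 43.2 CPM against 61.2 and 45.1 CPM, with a log2 fold change of 0.36 ± 0.32 (adjusted p = 0.644 by edgeR), and Hdac1 and Hdac2 did not pass.

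Of 9 heat shock genes the chaperones Hspd1 and Hsph1 rose and Dnajb1 fell, and DESeq2 called 1 of them, a rise. Hspd1 was 252 and 264 CPM in the controls and 572 and 530 CPM in the knockouts. None of 12 genes of major histocompatibility antigens passed by edgeR, with none at an unadjusted p under 0.05 and none by DESeq2, and their median was 0.01. Of 7 tested imprinted genes outside the rule none passed by edgeR, with 1 at an unadjusted p under 0.05 and none by DESeq2. Of the lists of other cell types, Hbb-bt of the erythroid list rose, Prtn3 of the neutrophil list fell and Bst2 is also on the dendritic list, and DESeq2 called no gene of these lists. Hbb-bt, a haemoglobin gene, was 142 and 281 CPM against 411 and 499 CPM, and Prtn3, a granule protease, 733 and 256 CPM against 300.1 and 141 CPM. The part of transcripts from other cells in these results was not tested.

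The same comparison was made in the cells with 1 or 2 markers and in the other kept cells. Genes passing were 178 higher (2.09%) and 222 lower (2.60%) of 8536 in the cells with 1 or 2 markers, and 255 higher (1.87%) and 406 lower (2.98%) of 13633 in the other kept cells. The classes come from the same libraries and share their mice, so they are set side by side. Immediate early genes fell in 17 of 21 tested in the members, 19 of 21 in the cells with 1 or 2 markers and 11 of 25 in the other kept cells, with medians of -1.66, -1.80 and -1.15. Replication genes rose in 10 of 25, 17 of 28 and 0 of 32, with medians of 1.05, 0.90 and 0.06. Both groups of genes thus had similar medians in the members and in the cells next to them in marker number. Of the 25 mitosis genes, 18 were tested in the cells with 1 or 2 markers and 14 passed as higher, with a median of 2.27. The filter keeps a gene that is high in 1 genotype alone, so this count and median describe only the genes kept. The whole list summed to 449 and 516 CPM in the controls and 1330 and 1146 CPM in the knockouts there. In the members it summed to 363 and 357 CPM against 742 and 480 CPM, with 2 genes tested.

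Whether the effect of genotype differed between classes was tested as an interaction with the library as a block. Against all marker-poor cells, 16 genes had a higher genotype effect in the members (0.169%) and 87 a lower one (0.916%) of 9493 tested. Mature cell genes led these calls. Hbb-bs, an adult haemoglobin gene, was 830 and 7130 CPM in control marker-poor cells and 1.80 and 4.10 CPM in knockout ones. Of these cells, 4 of 1214 and 2 of 122 in the controls and none in the knockouts held 100 or more haemoglobin UMIs. The part of the gap that these few cells carried was not tested. H2-Aa, a class II histocompatibility gene, was 60.3 and 49.6 CPM against 806 and 409 CPM. In the members Hbb-bs stayed under 12 CPM and H2-Aa between 45.9 and 69.4 CPM. Against the cells with 1 or 2 markers, 4 of 8437 genes were higher (0.0474%) and 1 was lower (0.0119%). Klf2 was 282 and 307 CPM in the controls and 68.0 and 62.0 CPM in the knockouts there, a log2 fold change of -2.19, against -0.73 in the members. The effects differed by 1.55 ± 0.20 (adjusted p = 0.00094 by edgeR). Klf6, a related zinc finger factor, differed by 0.94 ± 0.15, with -1.28 in the members and -2.22 in the other class. For the other immediate early genes no difference between these classes passed. Without either control replicate none of the 5 genes passed, with 409 and 316 genes at an unadjusted p under 0.05 by edgeR, so these calls rest on both controls.

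Ifit1 and Cxcl10, both induced by interferon, had a higher genotype effect in the members, which for Cxcl10 was a fall in the other class. Ifit1 was 26.8 and 50.8 CPM in control members and 118.5 and 66.8 CPM in knockout members, against 23.9, 68.2, 36.3 and 22.0 CPM in the cells with 1 or 2 markers. Cxcl10 was 18.9, 49.4, 21.0 and 37.3 CPM in the members and 18.4, 112.6, 9.07 and 2.45 CPM in the other class. Cxcl10 fell by 3.54 ± 0.86 on the log2 scale in the cells with 1 or 2 markers (adjusted p = 0.0247 by edgeR) and its log2 fold change in the members was -0.45 (adjusted p = 0.642 by edgeR). Ifit1 did not pass in either class, with 1.02 in the members and -0.57 in the other class. H2afz, a histone variant gene of dividing cells, differed by -0.60 ± 0.10, with 0.55 in the members and 1.17 in the other class. Meg3 stood at 29.8 and 9.10 CPM in control cells with 1 or 2 markers and 3.02 and 15.5 CPM in knockout cells, values that the rule limits as well.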

How the data were processed

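The authors aligned 3′ droplet reads to mm10 and counted UMIs per gene and barcode with Cell Ranger 3.1 (submitters' processing notes), and deposited raw UMI counts, as whole numbers over 27998 genes with no normalization. The members and gene lists were chosen with earlier results of these data known. Kept barcodes and members were found by the rule given in the text, UMIs were summed per library and class, and CPM was taken from these sums. Doublets were not called. Counts were filtered with filterByExpr, scaled by TMM and tested with edgeR 4.0.16 (quasi-likelihood, R 4.3.3), with DESeq2 1.42.0 as an alternative. The interaction of class and genotype had library as a block. The procedure was tested on simulated data. Shares have Clopper-Pearson intervals (scipy 1.17.1) and a two-sided exact permutation test. Member sums of 523139 to 1457079 UMIs per library set the precision.

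Genes named are the 12 largest rises and 12 largest falls past the threshold, genes of the lists, and the 15 genes highest and 15 lowest against marker-poor cells with at least 20 CPM. Nothing shows that same-numbered libraries were paired, and deviations of control and knockout replicate 1 from their group means correlated at -0.03 over genes. Alternatives were thinning, other thresholds, each library left out and other comparison cells. Thinned fits and level differences kept the classes found at full depth, while thinned shares and marker counts read the rule again on the thinned counts. Of these, 7 were added after the data were seen, among them the cells with 1 or 2 markers and the fit without members holding neutrophil or mast cell genes. The 2 libraries per genotype came from separate pools of mice. Ighm and Rian were not used here, and some genes of the lists are not reported here.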

Additional observations from a re-analysis of the deposited data

Results flagged for a closer look

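Differences in the genotype effect between cell classes were tested as an interaction. Against all marker-poor cells it was called for 16 genes with a higher effect in the stem-like cells and 87 with a lower one. Genes outside the rule that are on a list or named in the text are given here. Among immediate early genes Jund differed by -1.31, Jun by -0.98, Fosb by -0.96, Junb by -0.80, Zfp36 by -0.81, Ier5 by -1.73 and Btg2 by -1.21 on the log2 scale. Among growth restraint genes Btg1 differed by -1.42, Tsc22d3 by -1.47 and Txnip by -0.85. Interferon genes and Cxcl10 had both signs, with Ifit1 at 2.14, Ifit3 at 2.05, Rsad2 at 1.58, Cxcl10 at 3.59 and Bst2 at -0.73. Genes of antigen presentation were lower, with H2-Aa at -3.77, H2-Ab1 at -2.36, H2-Eb1 at -3.37 and Cd74 at -2.88. The others were Map3k8 at -3.09, Ly6a at -1.44, Ltb at -1.87, Cd52 at -1.89, Cd79b at -2.81, Cenpa at -1.53, Malat1 at -1.09, Skil at -1.24, Hbb-bt at 3.36 and Hbb-bs at 13.2. Of neutrophil genes S100a8 was at 6.48, S100a9 at 6.75 and Retnlg at 9.87. The members of knockout replicate 2 held 198 UMIs of S100a8, 207 of S100a9 and 103 of Retnlg, and the other members at most 11 of any of them, so these values rest on that library, in which 1 member held 20 or more UMIs of S100a8 and S100a9. Egr2 differed by -8.33, a fitted value that depends on the prior count because knockout members had no UMI of it and control members 3 and 15. Against the cells with 1 or 2 markers, Jun differed by -0.12 and Btg2 by -0.04, and neither passed (adjusted p = 0.957 and 0.994 by edgeR), while Map3k8 differed by -2.64 (adjusted p = 0.236). Against these cells Klf2 differed by 1.55, Klf6 by 0.94, Cxcl10 by 3.52, Ifit1 by 1.84 and H2afz by -0.60. With 2 libraries per genotype no library could be tested as standing apart in its group.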

How the results depend on the processing

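The 213 genes called in the members kept their direction wherever they were tested. This was largely set in advance, because they were chosen from these libraries and 212 of them did not overlap between the genotypes. After thinning 173 of them were tested and 48 called again, and DESeq2 called 55 of the 213 again. The counts of higher and lower genes were 67 and 146, against 16 and 46 with DESeq2 (3780 genes tested), 115 and 206 without the filter on low counts, 6 and 43 after thinning and 20 and 45 in members with at least 4 markers. Leaving out 1 library gave 8 to 151 higher and 12 to 265 lower genes, where a lone library was assumed to vary like the other genotype. Without the 2 members with neutrophil or mast cell genes they were 71 and 142, and no member was deep enough to be left out as a high-UMI cell. With replicate number as a replicate block the counts were 86 and 172, but the sources used here do not say that the numbers pair the libraries. The cause of these differences was not tested. Genes differing between classes were 103 against marker-poor cells, 184 against all other kept cells (135 with a higher effect in the members and 49 with a lower one), 21 after thinning, 5 against cells with 1 or 2 markers and 23 to 64 with a library left out. The 5 became 0 to 23 with a library left out. The share of members differed by -10.3 to 0.32 points with a library left out, and was positive only without control replicate 2. It was -2.10 after thinning, with the rule read on the thinned counts, -1.27 with copied barcodes kept and -15.6 of cells that met the negative conditions. Small values changed sign for Trp53 (-0.050 to 0.18 with a knockout library left out, -0.025 with at least 4 markers), Ccnd2 (-0.065 to 0.18 with a knockout library left out) and Hdac1 (-0.15 after thinning, -0.14 with at least 4 markers). The sums of 51 and 85 knockout members limit what low genes can show.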

Other observations

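The noncoding RNAs Malat1 and Neat1 are on no list and were picked after their values were seen, so they stand for no group of genes. Malat1, a long noncoding RNA kept in nuclear speckles, was 10331 and 11374 CPM in control members and 5658 and 4502 CPM in knockout members, a log2 fold change of -1.19 ± 0.27 (SE, adjusted p = 0.0103 by edgeR). Neat1, the scaffold of paraspeckles, was 462 and 191 CPM against 187 and 107 CPM, and changed by -1.19 ± 0.29 (adjusted p = 0.0218 by edgeR). In the cells with 1 or 2 markers the log2 fold changes were -1.34 for Malat1 and -1.11 for Neat1, and both passed. The genotype effect on Malat1 differed from that in all marker-poor cells by -1.09 (adjusted p = 8.13e-11 by edgeR), and from that in the cells with 1 or 2 markers by 0.18 (adjusted p = 0.708 by edgeR). Without control replicate 1, Neat1 changed by -0.54 and did not pass, and without either knockout replicate neither gene passed. Neat1 also did not pass with DESeq2 (-1.16), after thinning (-1.03) or in members with at least 4 markers (-1.39).

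Utp20, Nolc1 and Nhp2 were also picked after their values were seen, and other genes of their function were not counted. Utp20, a factor of small subunit processing, was 26.8 and 20.6 CPM in the controls and 70.7 and 52.8 CPM in the knockouts, a log2 fold change of 1.31 ± 0.33 (adjusted p = 0.0230 by edgeR). Nolc1, a nucleolar chaperone, changed by 1.09 ± 0.25, and Nhp2, a protein of guide RNA particles, by 0.98 ± 0.23. In the cells with 1 or 2 markers none of these 3 genes passed, with log2 fold changes of 0.91 for Utp20 and 0.55 for Nhp2, and the difference between the classes did not pass for any of them. None of the 3 passed without knockout replicate 1 or after thinning.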
